A study of Mus musculus with 4 samples.

Results

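The 5 mitochondrial messenger RNAs described here, mt-Co1, mt-Nd4, mt-Nd5, mt-Cytb and mt-Nd6, are those of the 13 protein-coding genes of the mouse mitochondrial chromosome that held crosslink sites of SRSF4-GFP. They were selected on the deposited cDNA positions themselves, as the mitochondrial mRNAs with a listed site, so the presence of sites in these genes is a description and was not tested. A site belonged to an mRNA when it lay within the annotated gene on the gene's own strand and at no position shared with a tRNA gene. In this way 167 of the 33749 sites in the list (0.495%) were assigned to the 5 mRNAs, with 241 of 93371 cDNAs (0.258%).

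SRSF4 is a serine and arginine-rich splicing factor. Its RNA contacts were mapped by iCLIP, in which ultraviolet light joins a protein to the RNA it touches, the protein is pulled down, and the point where reverse transcription stops marks the contact. Cardiomyocytes from newborn (P0 or P1) C57BL/6 mice were given 15 μg of modified RNA encoding SRSF4-GFP with a lipid reagent (21 μL), and 48 h later received 100 mJ of light at 254 nm, per the labels' protocols. The protein mapped was therefore a tagged form made from transfected RNA. All 4 libraries in the labels belong to this 1 group, and no control (no GFP alone, no input RNA) was analysed here. The values are 1 pooled list of significant sites, which its header says is a sum over 5 data sets, so there is no value per library and no spread between replicates. How these 5 data sets match the 4 labelled libraries is not stated in the sources used here. The labelled cell type was not checked against marker genes, because nuclear genes could not be named on the mm9 build of the list.

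Mitochondrial DNA is transcribed from both strands into long precursor RNAs that are cut, mostly at tRNA genes, into rRNAs, tRNAs and mRNAs. The mRNAs have almost no untranslated sequence, are not spliced, and are translated inside the mitochondrion into core subunits of the respiratory chain. The heart depends heavily on this chain, and mitochondrial RNAs are abundant in cardiomyocytes. Splicing factors of the SRSF family act on nuclear precursor RNAs.

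The sequences that carried the most cDNAs in each mRNA show what the listed sites looked like. They are written 5′ to 3′ along the mRNA as DNA letters, with every crosslinked nucleotide in capitals and 10 nt to each side of the outermost sites. They come from the GENCODE M21 transcript sequences of GRCm38, whose mitochondrial coordinates are the same as those of mm9. Sites no more than 50 nt from each other were counted as 1 cluster.
mt-Co1, chrM:5757-5912, plus strand: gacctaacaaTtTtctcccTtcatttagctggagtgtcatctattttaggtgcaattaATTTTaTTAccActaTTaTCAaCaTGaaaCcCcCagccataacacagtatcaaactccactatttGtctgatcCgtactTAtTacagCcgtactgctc
mt-Nd4, chrM:11267-11418, plus strand: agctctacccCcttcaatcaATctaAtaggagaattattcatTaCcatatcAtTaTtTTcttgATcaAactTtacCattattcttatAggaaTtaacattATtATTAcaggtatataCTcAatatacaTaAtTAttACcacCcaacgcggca
mt-Nd5, chrM:11885-11927, plus strand: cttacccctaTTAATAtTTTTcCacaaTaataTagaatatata
mt-Cytb, chrM:14791-14821, plus strand: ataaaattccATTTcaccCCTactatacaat
mt-Nd6, chrM:13748-13773, minus strand: gtttttttaaTtTgTGtgcttaatta
Runs of T, that is U in the RNA, recur at the crosslinked nucleotides, and G is rarely among them.

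Sites in the 5 mRNAs were grouped and shallow. They formed 16 clusters, 14 of them with 3 or more sites and 2 with a single site. The 14 clusters were 6 to 136 nt wide, with a median of 22.5 nt, and all 16 together covered 507 of 6410 nt (7.91%). The median step from a site to the next in the same mRNA was 2 nt. At 96 sites (57.5%) another site lay at the adjacent nucleotide, and at 165 of 167 another lay within 15 nt, the neighbourhood on which the authors selected sites, so near neighbours are partly built into the list. The 5 mRNAs were counted on a pooled list, and neither RNA abundance nor the number of cells behind each count was measured.

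mt-Co1 encodes subunit 1 of cytochrome c oxidase (complex IV), the enzyme that passes electrons to oxygen. The gene (mitochondrial chromosome, 5328 to 6872, plus strand, a single exon of 1545 nt) held 70 sites with 99 cDNAs, or 6.41 cDNAs per 100 nt. The sites lay between nucleotides 180 and 1045 of the gene, and the last 500 nt held none. Of its 6 clusters, the one from 5767 to 5902 held 29 sites and 42 cDNAs, 42.4% of the cDNAs of the gene. The highest site of mt-Co1, at 5897, had 4 cDNAs, and its neighbours at 5894 and 5895 had 3 each. The cluster from 6351 to 6372 held 11 sites with 17 cDNAs, and 10 of the 11 crosslinked nucleotides were U. The clusters at 5507 to 5540, 5619 to 5639 and 6165 to 6187 held 10, 10 and 9 sites with 14, 13 and 12 cDNAs, and each had a single highest site of 3 cDNAs. A lone site at 6023 had 1 cDNA. The clusters of 9 to 11 sites were thus alike in width, 21 to 34 nt, and each had a highest site of 3 cDNAs.

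mt-Nd4 encodes a membrane subunit of complex I, the proton-pumping NADH dehydrogenase. The gene (10167 to 11544, plus strand, 1378 nt) held 57 sites with 86 cDNAs, 6.24 per 100 nt, close to the density of mt-Co1. All 57 lay in the 3′ part, from nucleotide 873 to 1341 of the gene, and the last of them was 37 nt from its end. The cluster from 11277 to 11408 held 34 sites and 51 cDNAs (59.3% of the gene). It contained the highest sites of all 5 mRNAs, at 11324 and 11400, with 6 cDNAs each. The nucleotide at 11324 was U, in ttattTtcttg, whereas that at 11400 was A, in taattAttacc. Sites next to them were low: 11322 and 11325 had 1 cDNA each, and 11399 had 2. The cluster from 11483 to 11507 held 14 sites with 24 cDNAs, a mean of 1.71 per site, and 3 of its sites had 3 cDNAs. The first cluster, from 11039 to 11068, held 9 sites with 11 cDNAs, and only the site at 11053 exceeded 1, with 3.

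mt-Nd5 encodes another proton-pumping subunit of complex I. In this gene (11742 to 13565, plus strand, 1824 nt, the longest of the 13) 25 sites carried 37 cDNAs, 2.03 per 100 nt. A pair of clusters near its 5′ end and 1 near its 3′ end held all of these but a lone site. From 11895 to 11917, 13 sites carried 18 cDNAs, and the highest, at 11904, had 4. From 12089 to 12104, the sites at 12089, 12096 and 12097 had 1 cDNA each, the site at 12102 had 2 and the site at 12104 had 3. From 13331 to 13346, 6 sites carried 10 cDNAs, with 3 at 13334. Between 12104 and the lone site at 13206, 1101 nt held no listed site on either strand.

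mt-Nd6 is the single mRNA made from the opposite strand, and it encodes a complex I subunit. Its gene (13552 to 14070, minus strand, 519 nt) had 4 sites, at 13758, 13759, 13761 and 13763, with 1 cDNA each. These 6 nt, at nucleotides 308 to 313 of the mRNA, held its only listed sites. No site of mt-Nd6 would remain if a site needed 2 cDNAs.

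mt-Cytb encodes cytochrome b, the mitochondrially encoded subunit of complex III. Its gene (14145 to 15288, plus strand, 1144 nt) held 11 sites with 15 cDNAs, 1.31 per 100 nt. At 14801, 14802, 14803 and 14804 the counts were 1, 3, 2 and 1, and 14809, 14810 and 14811 had 1 each. The second cluster had 1 cDNA at 15051, 15052 and 15057 and 2 at 15060. The first listed nucleotide was number 657 of the mRNA, so the 5′ part held no site.

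The order by cDNAs per 100 nt was mt-Co1 (6.41), mt-Nd4 (6.24), mt-Nd5 (2.03), mt-Cytb (1.31) and mt-Nd6 (0.771). Without replicates no difference between neighbours in this order could be tested. mt-Co1 and mt-Nd4 together took 76.8% of the cDNAs of the 5 mRNAs. No site of the opposite strand lay within any of the 5 genes.

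**Figure D1:**
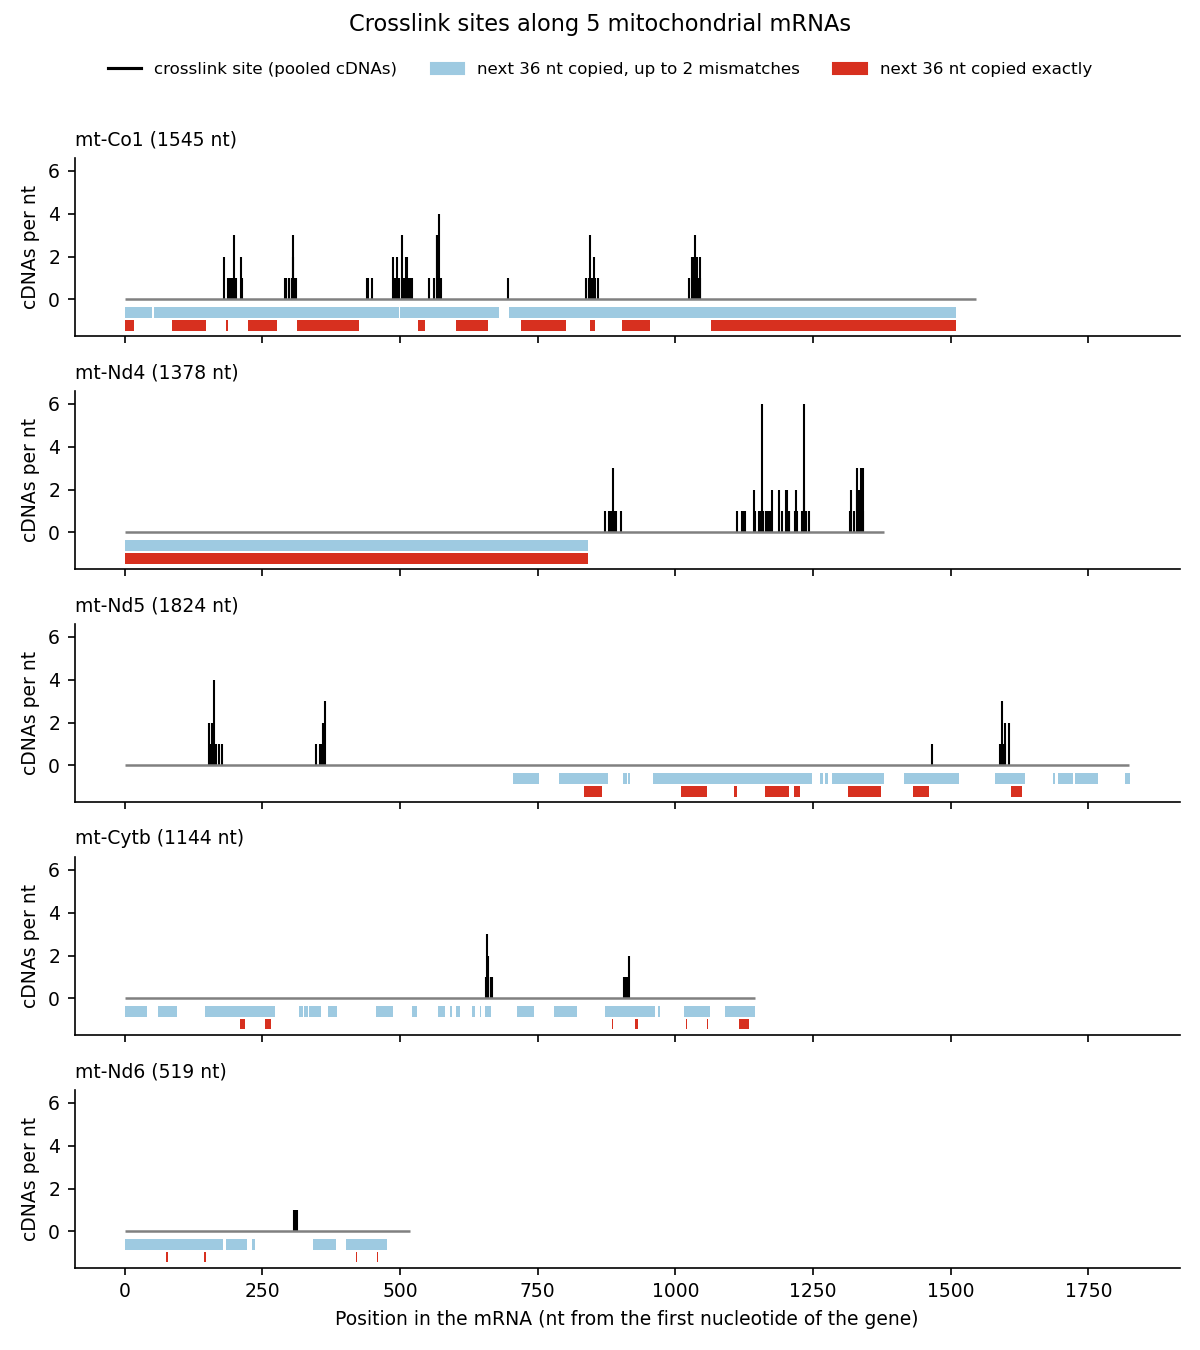
Crosslink sites along the 5 mRNAs: the horizontal axis is the position in nt from the first nucleotide of each gene and the vertical axis the pooled cDNAs per nucleotide; bars below mark positions whose next 36 nt also occur in another annotated transcript, exactly (red) or with up to 2 mismatches (blue). Sites of mt-Nd4 begin at nucleotide 873, past the red bar, and those of mt-Co1 lie mostly between red bars and end at nucleotide 1045.

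Depth at single nucleotides was low in the mRNAs. The mean was 1.44 cDNAs per site and the highest value 6, against a mean of 7.78 and a highest value of 156 in the 2 mitochondrial rRNAs, and 3.92 and 93 in the tRNAs. A single cDNA marked 119 of 167 mRNA sites (71.3%, 95% exact interval 63.8% to 78.0%). The share was 65.6% (65.1% to 66.1%) at 32891 nuclear sites, which lies within the interval of the mRNAs. It was 43.0% (34.5% to 51.8%) at 135 tRNA sites and 25% (21.4% to 28.8%) at 552 rRNA sites, both below that interval. Sites with 4 or more cDNAs made up 2.40% in the mRNAs, 13.3% in nuclear RNA, 24.4% in tRNAs and 46.9% in rRNAs. The single-cDNA share was alike among the larger members, at 71.4% in mt-Co1, 70.2% in mt-Nd4 and 68.0% in mt-Nd5. Intervals are Clopper-Pearson and count every site as independent, so they hold counting error alone. Sites of 1 cluster share their RNA, so no test was made between classes.

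**Figure D2:**
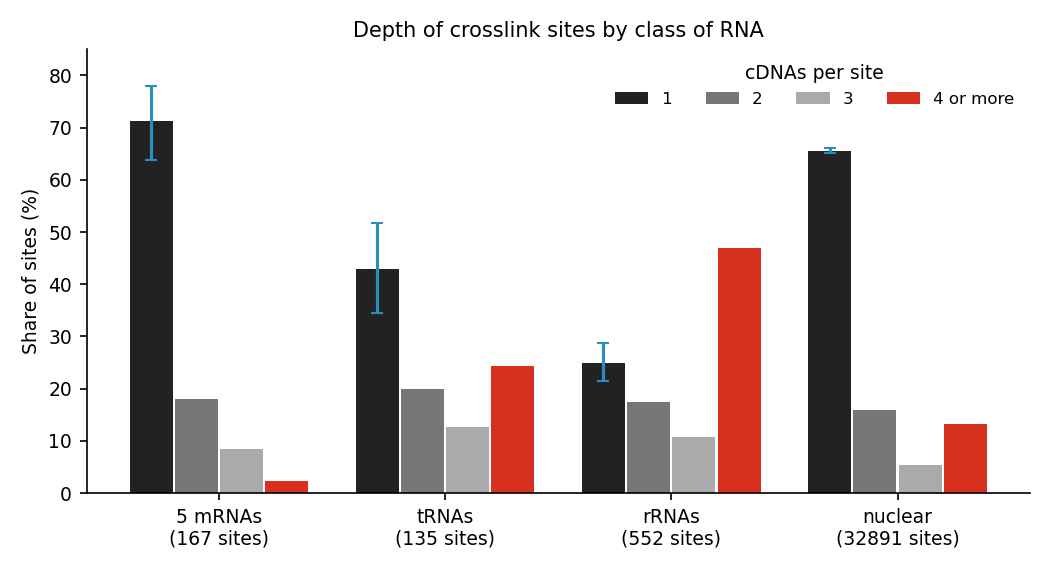
Share of sites (vertical axis, %) with 1, 2, 3 and 4 or more cDNAs in the 5 mRNAs, the tRNAs, the rRNAs and nuclear RNA; blue bars are 95% exact intervals of the single-cDNA share. Single-cDNA sites make up 71.3% in the mRNAs and 25% in the rRNAs.

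Uridine was the usual crosslinked base in the mRNAs. It stood at 93 of 167 sites (55.7%, 95% exact interval 47.8% to 63.4%), while 30.6% of all nucleotides of these mRNAs were U. Guanosine stood at 6 sites (3.59%, interval 1.33% to 7.66%) and made up 13.3% of the nucleotides. Adenosine stood at 24.6% of sites against 31.8% of nucleotides, and cytidine at 16.2% against 24.3%. The share of U at sites exceeded that of the whole mRNA in every member: 58.6% against 30.6% in mt-Co1, 50.9% against 29.5% in mt-Nd4, 56.0% against 28.6% in mt-Nd5, 54.5% against 29.2% in mt-Cytb, and 3 of 4 sites against 43.7% in mt-Nd6. The interval for mt-Cytb, 23.4% to 83.3% from 11 sites, and that for mt-Nd6, 19.4% to 99.4%, include the share of the whole mRNA. At rRNA sites U made up 30.8% (27.0% to 34.8%) against 26.4% of rRNA nucleotides, and at tRNA sites 36.3% (28.2% to 45.0%) against 31.5%. Among sites with 2 or more cDNAs in the mRNAs, 70.8% were U. Ultraviolet light is known to join U to protein more readily than the other bases, and its part in these shares was not tested.

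U was also frequent at the nucleotides around each site. At 57.5% of sites another site lay at the adjacent nucleotide, so these neighbours partly count crosslinked nucleotides again. One nt before the site U made up 45.5% and 1 nt after it 47.3%. From 9 nt before the site to 2 nt before it the share stayed between 40.7% and 43.7%, and from 3 to 10 nt after it between 32.3% and 41.9%. A row of 3 uridines (TTT in DNA letters, searched on the mRNA strand alone) lay within 5 nt of 64 sites (38.3%, interval 30.9% to 46.2%), against 18.2% of all positions of the 5 mRNAs. The window searched for such rows includes the crosslinked nucleotide, which is U more often than other positions are. The excess of rows is thus partly built in, and no comparison with U positions alone was made. In mt-Co1 such rows lay near 55.7% of sites (interval 43.3% to 67.6%) against 22.9% of positions. In mt-Nd4 they lay near fewer sites, 12.3% (interval 5.08% to 23.7%), against 10.0% of positions. All 57 sites of mt-Nd4 lay outside the exact copies described below, where such rows lay near 5.38% of its positions. That share is still within the interval of mt-Nd4. Outside exact copies in mt-Co1 the share was 22.2% of positions, below the interval of mt-Co1. The sequence of mt-Nd4 above shows stretches in which U and A alternate. Purine-rich sequence, known as a binding site of several SR proteins, was looked for as 5 consecutive nucleotides made of G and A alone. It lay within 25 nt of 38 sites (22.8%, interval 16.6% to 29.9%), against 48.6% of all positions. In mt-Co1 the shares were 8.57% of sites and 52.2% of positions, in mt-Nd4 36.8% and 48.3%, and in mt-Nd5 4% and 46.2%. The members with few sites went the other way, with 54.5% of 11 sites and 41.7% of positions in mt-Cytb, and all 4 sites and 62.6% of positions in mt-Nd6. The intervals of mt-Nd4 (24.4% to 50.7%), mt-Cytb (23.4% to 83.3%) and mt-Nd6 (39.8% to 100%) include the share of positions. Those of mt-Co1 (3.21% to 17.7%) and mt-Nd5 (0.101% to 20.4%) lie below it. These matches describe the letters near the sites, and sites of 1 cluster share most of the same window.

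**Figure D3:**
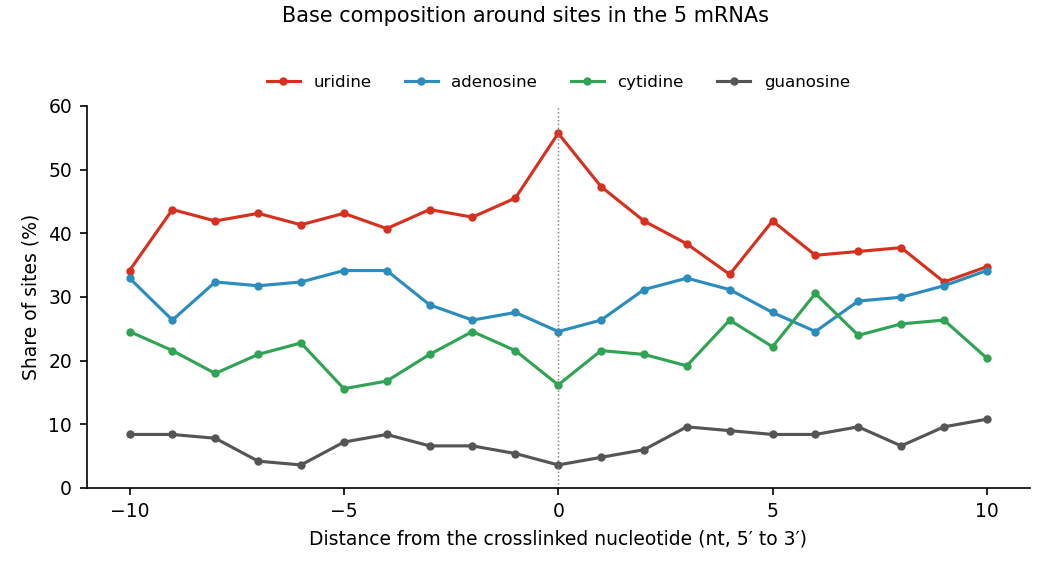
Share of the 167 sites of the 5 mRNAs (vertical axis, %) with each base at each distance from the crosslinked nucleotide (horizontal axis, nt, 5′ to 3′). Uridine peaks at 55.7% at the site, where guanosine is at 3.59%.

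Sites fell on all 3 positions of the codon. Of the 167 sites, 56 fell on the first, 51 on the second and 60 on the third position of a codon, counted from the first nucleotide of each gene. The shares, 33.5%, 30.5% and 35.9%, have intervals that all include an even split.

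The tRNA genes beside the members mostly held no listed site. mt-Ty and mt-Ts1, on the strand opposite to mt-Co1, mt-Th after mt-Nd4, and mt-Te before mt-Nd6 had none. mt-Tl2, which ends just before mt-Nd5, held 10 sites with 21 cDNAs, and mt-Tt, which follows mt-Cytb, held 13 sites with 38 cDNAs and a highest site of 8. No site of the 5 mRNAs lay at a position shared with a tRNA gene.

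The other 8 mRNAs had no listed site: mt-Nd1, mt-Nd2, mt-Nd3 and mt-Nd4l of complex I, mt-Co2 and mt-Co3 of complex IV, and mt-Atp6 and mt-Atp8 of the ATP synthase. Of these, 6 lay whole within a single empty stretch of 4666 nt, from 6373 to 11038, that begins in mt-Co1 and ends in mt-Nd4. These 6 are all of them apart from mt-Nd1 and mt-Nd2. The 5 tRNA genes mt-Ts1, mt-Td, mt-Tk, mt-Tg and mt-Tr lay in it too, also without a site. The next longest stretch without a site, on either strand, was 1154 nt.

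The edges of this stretch fell near the edges of a copy of mitochondrial DNA in the nuclear genome. GENCODE lists 7 unprocessed pseudogenes in a row on the minus strand of chromosome 1 of GRCm38, from 24611535 to 24616197, and in windows of 36 identical nt they match 4129 of the 4649 nt of the mitochondrial chromosome between 6394 and 11042. The parts of this span that they do not match hold most of mt-Atp8 and most or all of each of the 5 tRNA genes between mt-Co1 and mt-Nd4. Gm29216 matches the 3′ part of mt-Co1 (6394 to 6872), and Gm28439 matches the 5′ part of mt-Nd4 (10167 to 11042). Gm28661, Gm10925, Gm28437, Gm28438 and Gm10222 match mt-Co2, mt-Atp6, mt-Co3, mt-Nd3 and mt-Nd4l. The last site of mt-Co1, at 6372, lay 22 nt before the start of this span, and the first site of mt-Nd4, at 11039, lay 3 nt before its end. That site was the only one of either strand within the span. The clusters at the 2 edges are printed here because they bound the empty stretch, and they were picked after their values were seen.
mt-Co1, last cluster, chrM:6341-6382, plus strand: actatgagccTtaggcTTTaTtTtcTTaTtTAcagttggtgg
mt-Nd4, first cluster, chrM:11029-11078, plus strand: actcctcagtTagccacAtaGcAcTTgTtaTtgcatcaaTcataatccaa
The sources used here do not say how reads that map to several places were treated, and the part of such reads in the empty stretch was not tested.

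Copies were then counted for every position. A position counted as copied when the 36 nt that follow it along the mRNA, where a cDNA read would begin, also occur on either strand of another annotated transcript. The length of 36 nt is a setting, since the sources used here do not state the read length. With up to 2 mismatches, 63.6% of 11288 positions in the 13 mRNAs were copied, 63.4% in the 5 with sites and 63.8% in the 8 without. Of the 167 sites, 84 (50.3%, 95% exact interval 42.5% to 58.1%) were at such positions. With exact copies alone the picture differed: 32.3% of positions in the 5 mRNAs and 56.3% in the 8 without sites were copied, but 5 of the 167 sites (2.99%, interval 0.979% to 6.85%). All 5 were in mt-Co1, at 5514, 6174, 6176, 6180 and 6181, in exact matches 39 and 44 nt long, and they had 1 or 2 cDNAs. For 50 identical nt, 27.2% of positions and 0 of 156 sites were copied. Only annotated transcripts were searched, so a nuclear copy outside them would not be counted. mt-Atp8, which lies between mt-Co2 and mt-Atp6, had exact copies at 21.6% of its positions, and the nuclear sequence between the pseudogenes was not searched.

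Within mt-Co1 few sites stood where the next 36 nt were copied exactly. Sites did lie inside exact matches, closer than 36 nt to their 3′ ends. All 10 sites from 5619 to 5639 lay in the match from 5553 to 5639. The highest site, at 5897, lay in the match from 5862 to 5908. In mt-Co1 the 901 exactly copied positions held 5 sites, or 0.555 per 100 positions. The 362 positions with a nearest copy of 1 mismatch held 33 sites (9.12 per 100), and the 222 with 2 mismatches held 30 (13.5 per 100). Only 57 positions had no copy within 2 mismatches, and they held 2 sites (3.51 per 100). Gm13340, a pseudogene on chromosome 2, matches 98.0% of the 36 nt windows of mt-Co1 with up to 2 mismatches. In mt-Nd4 the 840 exactly copied positions held 0 sites and the other 502 held all 57, 11.4 per 100. In mt-Nd5 the 250 exactly copied positions held 0 sites, and the 1048 positions with no copy within 2 mismatches held 18 (1.72 per 100). In mt-Cytb and mt-Nd6 exact copies covered 4.55% and 2.50% of positions, and no site lay at them. Over the 5 mRNAs the density was 0.243 sites per 100 positions at exact copies, 3.36 at 1 mismatch, 4.68 at 2 mismatches and 3.56 where no copy was found. At 1 mismatch, 33 of the 35 sites were in mt-Co1. The other members with such positions held 2 sites at 269 (mt-Nd5), 0 at 223 (mt-Cytb) and 0 at 189 (mt-Nd6). At 2 mismatches these members held 5 sites at 257, 9 at 325 and 0 at 137 positions. Where no copy was found, 57 of the 83 sites were in mt-Nd4 (11.4 per 100). The density there was lower in mt-Co1 (3.51), mt-Nd5 (1.72), mt-Cytb (0.368, 2 sites at 544 positions) and mt-Nd6 (2.22, 4 sites at 180). Outside exact copies 31.2% of nucleotides of the 5 mRNAs were U, against 55.7% of all 167 sites, of which 5 lay at exact copies.

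**Figure D4:**
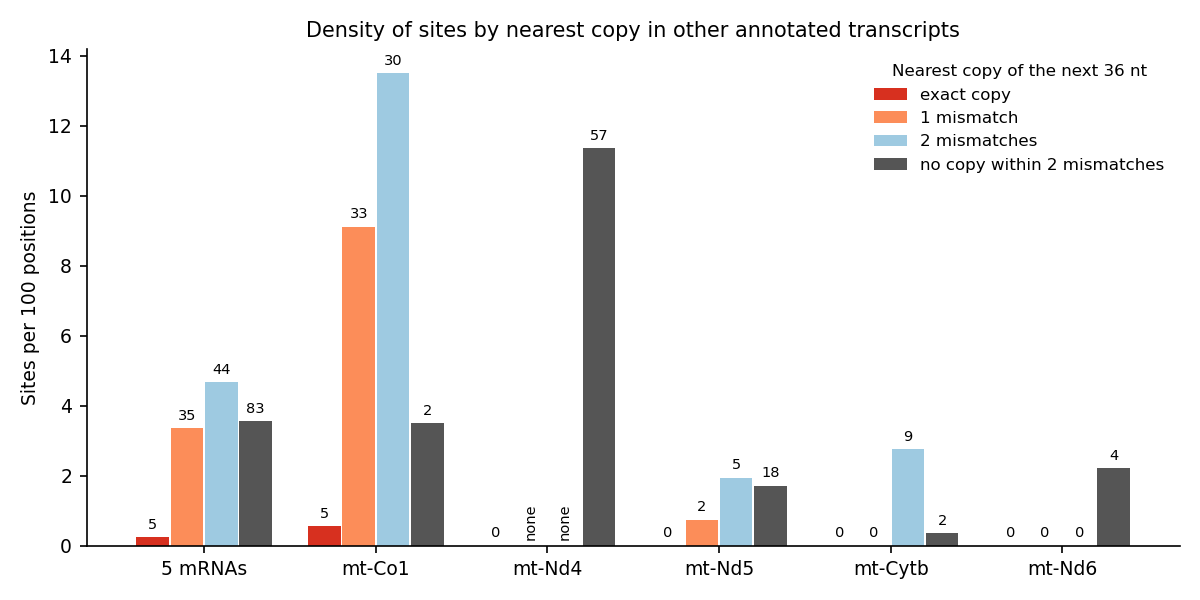
Crosslink sites per 100 positions (vertical axis) in the 5 mRNAs together and in each, by the nearest copy of the next 36 nt in other annotated transcripts; the number over each bar counts sites, and "none" marks a class without positions. At exact copies the 5 mRNAs together have 0.243 sites per 100 positions, against 3.36 or more in each of the other classes. At 1 mismatch, 33 of the 35 sites are in mt-Co1. Where no copy was found, 57 of the 83 sites are in mt-Nd4.

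Exact copies did not mark all mRNAs without sites. mt-Nd1 (2751 to 3707, plus strand), a complex I subunit gene that follows mt-Tl1, had exact copies at 0 of 955 positions and copies with up to 2 mismatches at 0.628%, and it had no listed site. mt-Nd2 had exact copies at 10.7% of 1036 positions and no listed site over the other 925. mt-Co1, in contrast, held 65 sites at its 641 positions without an exact copy (10.1 per 100), and mt-Nd4 57 at 502, whereas mt-Nd5 held 25 at 1574 (1.59 per 100), mt-Cytb 11 at 1092 (1.01) and mt-Nd6 4 at 506 (0.791). By sites per 100 nt of the whole gene the order was mt-Co1 (4.53), mt-Nd4 (4.14), mt-Nd5 (1.37), mt-Cytb (0.962) and mt-Nd6 (0.771). This order of the 5 members was kept when exactly copied positions were left out, except that mt-Nd4 came before mt-Co1. Crosslink positions too shallow for the authors' threshold would not be listed. In the rRNAs, where sites were densest, 1.26% of positions had exact copies and 0 of 552 sites lay at them.

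**Figure D5:**
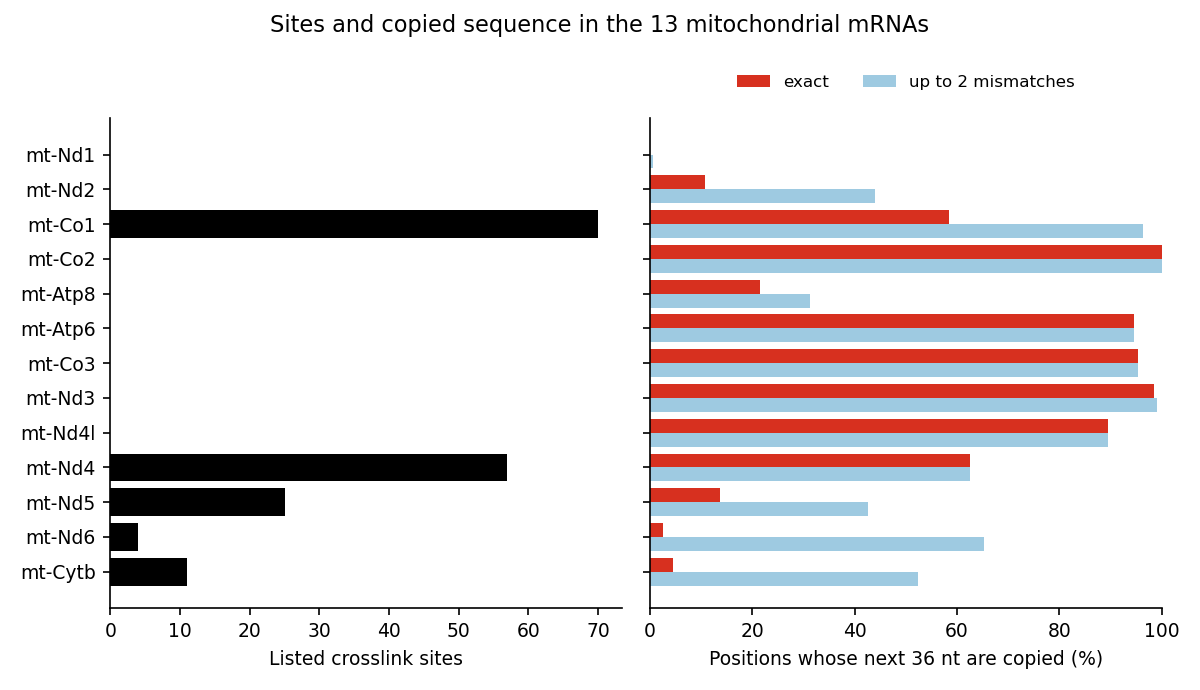
The 13 mitochondrial mRNAs in chromosomal order, with listed crosslink sites on the left and, on the right, the share of positions (%) whose next 36 nt occur in another annotated transcript, exactly (red) or with up to 2 mismatches (blue). mt-Co2 is copied at 100% of positions and has no site, while mt-Nd1 has no site and no exact copy.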

How the data were processed

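The authors deposited 1 list of crosslink positions on mm9, each with a score that counts cDNAs and carries the strand as its sign. Per the file header, these are sums over 5 data sets, filtered with 100 permutations (15 nt neighbourhood, regions separately, Ensembl 59) to a false discovery rate below 0.05. The submitters' processing notes name Bowtie 0.10.1. The depth of each library is unknown, and no count model or test between samples was fitted.

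Sites were assigned to mitochondrial genes with GENCODE M21 (GRCm38), whose mitochondrial coordinates equal those of mm9. Base sequence was joined from gene sequences, which agreed at all overlaps. Copies were searched in 141730 other GENCODE transcripts, in place of the genome that had been planned; the search was tested on simulated data. Named were all 5 members, every cluster of 3 or more sites and the adjoining tRNAs. Members and lists were chosen with earlier results of these data known. Alternatives varied depth, position, cluster distance and copy settings. Python 3.11.15, numpy 2.4.6, pandas 2.3.3, scipy 1.17.1 and matplotlib 3.10.9 were used.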

Additional observations from a re-analysis of the deposited data

How the results depend on the processing

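No paired analysis was possible because the list pools the libraries, and for the same reason no replicate could be left out. When a site needed at least 2 cDNAs, the 5 mRNAs held 48 sites in place of 167 and 122 cDNAs in place of 241, and uridine stood at 70.8% of sites in place of 55.7%. Reading positions 1 nt earlier gave 45.5% uridine. The share of positions with a copy in the 13 mRNAs, 63.6% with up to 2 mismatches in 36 nt, was 53.5% with up to 1 mismatch, 42.7% for exact copies, 48.0% for 25 exact nt, 39.1% for 50 exact nt and 56.1% for 50 nt with up to 2 mismatches. The share of sites with a copy, 50.3%, was 24.0%, 2.99%, 8.38%, 0% and 45.5% at the same settings; all of these for sites, and the settings with 1 mismatch and 50 exact nt for positions, were chosen after seeing the data. The counts of sites and cDNAs when positions shared with tRNAs were kept, of cDNAs without the highest site of each mRNA, of clusters joined up to 15 or 100 nt (19 and 14 against 16), and the single-cDNA share without mt-Co1 or without the lowest site of each cluster moved little. mRNAs with a site numbered 4 in place of 5 at 2 or more cDNAs. A value of 1 cDNA at 71.3% of sites limits what depth can show at a single nucleotide.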
